A study of Saccharomyces cerevisiae with 50 samples.

Results

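The mitochondrial ribosomal protein genes of budding yeast were followed through a cell cycle time course. The set was chosen by name and not by any measured value: every open reading frame on the array whose standard symbol starts with MRPL, MRPS or RSM, or with MRP followed by a digit. It held 67 genes of 6204 open reading frames. Of these, 38 encode proteins of the large subunit and 28 are assigned to the small subunit. The name rule also brought in MRP8, which is named like the others but is not a structural protein of the ribosome, and RSM22, a methyltransferase-like assembly factor counted here with the small subunit.

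Mitochondria keep a ribosome of their own, which translates the few messages of mitochondrial DNA, mostly core subunits of the respiratory chain and the ATP synthase. Nearly all of its proteins are encoded in the nucleus, made in the cytoplasm and imported. Of the genes measured, 41 encode counterparts of bacterial ribosomal proteins and 24 encode proteins with no bacterial counterpart. The family is known for following carbon source and growth, and in cultures that cycle metabolically its transcripts are known to rise and fall together. It is not among the textbook cell cycle gene groups.

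Cells of the laboratory strain W303 were held in G1 with alpha factor, the mating pheromone of MATalpha cells, and released into YEPD, a rich glucose medium. Total RNA was taken every 5 min from 0 to 120 min, 25 time points in all. Each sample was hybridised on 2 arrays with exchanged dyes against RNA of an asynchronous culture grown overnight in YEPD, which made 50 arrays. No other genotype or treatment was compared, and no label names another culture, so every p-value below measures the spread between time points of 1 course.

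Values are log2 ratios of sample over asynchronous reference, averaged over the 2 arrays of a time point. That the deposited ratios are log10 was inferred from values ending exactly at -2 and 2. That their direction is Cy5 over Cy3 was inferred from the opposed signs of the paired arrays and from pheromone genes, which stood far above the reference at 0 min (FUS1 at 3.72 and AGA1 at 5.79 log2 units). Every fold and every direction below rests on these readings. A ratio compares a gene with itself in the reference and gives no level of 1 gene against another.

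The paired arrays of a time point correlated with r between 0.196 and 0.673 over all open reading frames. The array titles carry dates, which put the Cy3 arrays into 2 batches (0 to 55 min and 60 to 120 min) and the Cy5 arrays into 6. Any comparison of early with late time points therefore also compares date batches. A pair of time points stood apart for this gene family. At 0 min the arrays of the pair disagreed, with a family mean of -0.169 with the sample in Cy3 and 0.324 with the sample in Cy5, the latter array being alone in its date batch. At 105 min the spread among the 67 genes (SD 0.448) was wider than at 100 min (SD 0.163), and it followed gene length, as described below. The SD was wider still at 15, 20, 45 and 60 min (0.452 to 0.576), where array values of members lay at the limit. The Cy5 array of 105 min is also alone in its date batch. Of 3350 array values of the family, 6 were missing and 6 lay at the 100-fold limit of the deposited table. Those at the limit belong to MRP21, MRPL20, MRPL50, MRPS9, MRPL44 and MRPS16, each on 1 array, where the paired array showed no such value.

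The family was low from 5 to 15 min and high 1 period later. At 0 min, where the paired arrays disagreed, it was not low. Its mean there was 0.072 and its median 0.047, against 0.032 for all open reading frames, with 36 of the 67 genes above that median. The mean ratio was -0.185 at 5 min, -0.126 at 10 min and -0.197 at 15 min. The 15 min mean includes the MRPL20 value at the limit, and the family median was lowest at 5 min (-0.194, against -0.166 at 15 min). The family mean was 0.127 at 65 min, 0.214 at 70 min, 0.221 at 75 min, the highest, and 0.215 at 80 min. At 5 min 11 of the 67 genes lay above the median of all open reading frames, and at 80 min 62 did. That median itself stayed between -0.026 at 15 min and 0.034 at 110 min. The windows in between held a mean of -0.054 ± 0.073 (SD, n = 8 time points) from 20 to 55 min and 0.102 ± 0.037 (SD, n = 8) from 85 to 120 min.

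**Figure D1:**
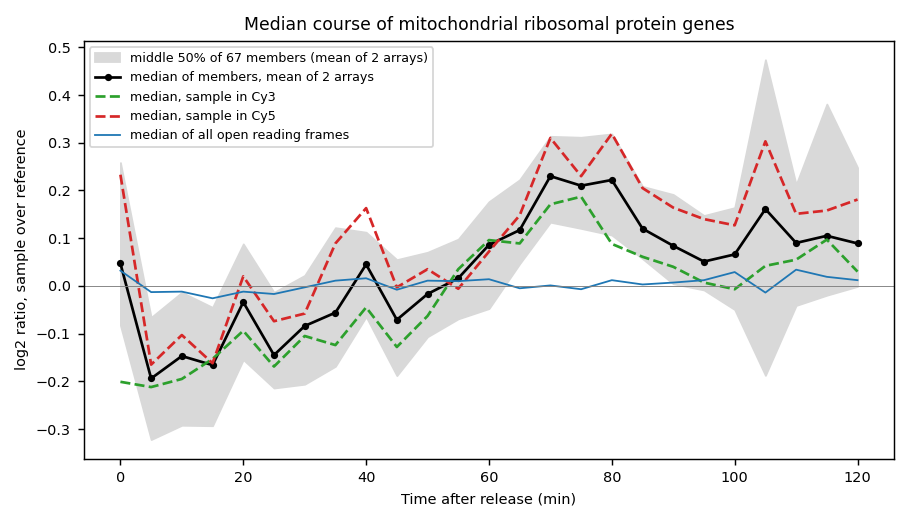
Median log2 ratio of the 67 mitochondrial ribosomal protein genes by time after release (min), with the middle 50% of genes shaded, the 2 dye orientations dashed and the median of all open reading frames in blue. The family median lies below the median of all open reading frames from 5 to 35 min and above it from 60 min on, and the 2 orientations part at 0 min.

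Both subunits followed this course. The large subunit mean was -0.129 ± 0.145 (SD, n = 4 time points) from 0 to 15 min and 0.19 ± 0.049 from 65 to 80 min. The small subunit mean was -0.11 ± 0.103 and 0.208 ± 0.047 in the same windows. The mean differed the same way in each orientation alone, from -0.216 to 0.138 with the sample in Cy3 and from -0.002 to 0.251 with the sample in Cy5. The early Cy5 mean includes the 0 min array; without 0 min its values lay between -0.152 and -0.064.

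**Figure D2:**
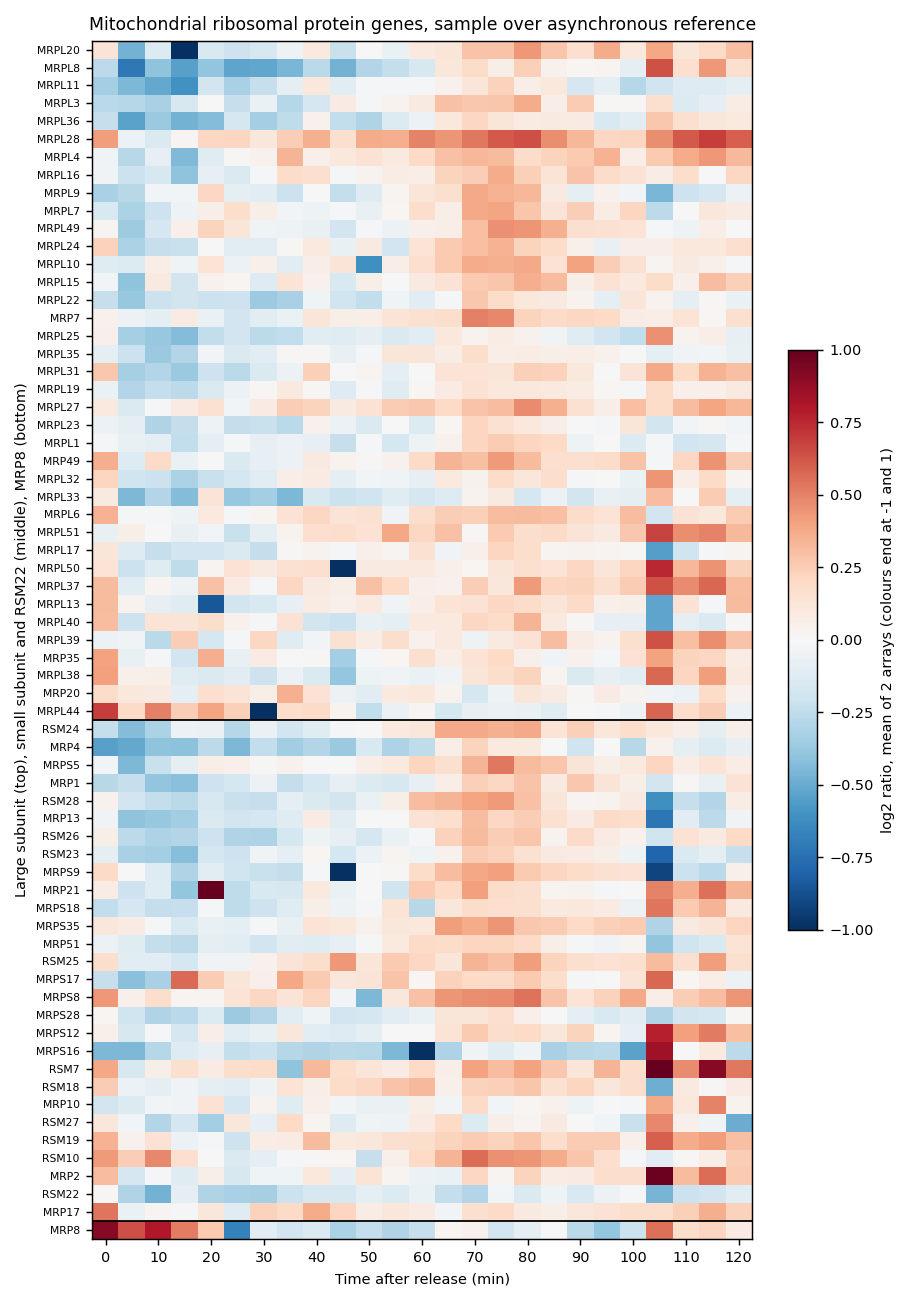
Log2 ratio of each of the 67 genes (rows; large subunit on top, small subunit with RSM22 in the middle, MRP8 at the bottom) at the 25 time points (columns, min after release). Blue fills the columns from 5 to 15 min and red those from 70 to 80 min for most rows, while the column at 105 min holds strong colours of both kinds.

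The first comparison set 0 to 15 min, just out of arrest, against 65 to 80 min, 1 fitted period later, with 4 time points on each side. Of the 67 genes, 35 were lower early and 2 were higher (limma, adjusted p under 0.05 over all 6204 open reading frames). Among all open reading frames 6.16% were called lower and 9.4% higher. The median change was -0.32 log2 units in the family and -0.0044 over all open reading frames. The change was below 0 in 63 of 67 genes, and in 57 of them in each dye orientation alone. The called changes ran from -0.27 to -0.63 log2 units, the latter being 1.55-fold. Every early value lay under every late value in 35 genes, against 9.74% of all open reading frames.

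Among small subunit genes, RSM24 had the largest called change. RSM24 encodes a mitochondria-specific protein of that subunit. Its ratios were -0.236, -0.433, -0.319 and -0.057 at 0, 5, 10 and 15 min and 0.375, 0.375, 0.358 and 0.376 at 65, 70, 75 and 80 min. The 2 sets of values do not overlap, and the late values lie almost on top of each other. The difference was -0.63 ± 0.09 (SE; limma, adjusted p = 0.0023), with -0.63 in both orientations.

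MRP4, the counterpart of bacterial S2, was the lowest of the small subunit genes at 0 min. It read -0.540, -0.513, -0.406 and -0.413 early and 0.066, 0.219, 0.100 and 0.101 late. All 4 early values lie well under the late ones, with a difference of -0.59 ± 0.07 (SE; limma, adjusted p = 0.0011). Its reading frame overlaps YHL005C, and the array cannot be assumed to tell the transcripts of overlapping frames apart. MRP1 and RSM26, which resemble superoxide dismutases, changed by -0.53 (limma, adjusted p = 0.0033) and -0.47 (limma, adjusted p = 0.0129). MRPS5, the counterpart of bacterial S5, changed by -0.53 (limma, adjusted p = 0.0170). MRP13, RSM28, RSM23, MRPS18, MRPS35 and MRP51 were among the other small subunit genes called lower. Of the 10 mitochondria-specific small subunit genes 8 were called lower, and of the 17 with bacterial counterparts 8 were.

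In the large subunit, MRPL8 and MRPL11 had the largest called changes. MRPL8, the counterpart of bacterial L17, read -0.262, -0.714, -0.404 and -0.540 early and 0.117, 0.180, 0.060 and 0.238 late. The groups do not overlap, and the difference was -0.63 ± 0.10 (SE; limma, adjusted p = 0.0057). With the Cy5 arrays alone it was not called (-0.53, limma, adjusted p = 0.0869). MRPL11, the counterpart of bacterial L10 in the stalk, read -0.341, -0.450, -0.510 and -0.604 early and 0.044, 0.120, 0.234 and 0.070 late. Here too the early values all lie lower, by -0.59 ± 0.08 (SE; limma, adjusted p = 0.0021). MRPL3, a mitochondria-specific protein, changed by -0.56 (limma, adjusted p = 0.0011), and MRPL36, the counterpart of bacterial L31, by -0.53 (limma, adjusted p = 0.0040). In all, 14 of 24 large subunit genes with bacterial counterparts and 5 of 14 mitochondria-specific ones were called lower.

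Several members moved little or showed a large difference that rests on 1 array. MRPL20 had the largest fitted difference of all, -1.25, but it was not called (limma, adjusted p = 0.265). Its mean of -3.404 at 15 min comes from an array value at the limit, while its other early values were 0.131, -0.474 and -0.139. With limit values set to missing, MRPL20 was called lower at -0.44 (limma, adjusted p = 0.0459). RSM22 read between -0.472 and 0.011 early and between -0.293 and -0.026 late, with groups that overlap. MRP20, the counterpart of bacterial L23, and MRP17, the counterpart of bacterial S6, had differences of 0.09 and 0.01 that were not called.

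The 2 genes called higher early were MRP8 and MRPL44. MRP8 read 0.913, 0.642, 0.802 and 0.510 early and 0.017, 0.042, -0.188 and -0.096 late. Its early values all lie above its late ones, by 0.77 ± 0.10 (SE; limma, adjusted p = 0.0021). MRP8 fell from the first time points and was high again, at 0.553, at 105 min. MRPL44, a mitochondria-specific large subunit gene, read 0.694, 0.188, 0.503 and 0.245 early and -0.178, -0.084, -0.063 and -0.075 late. Its difference was 0.51 ± 0.11 (SE; limma, adjusted p = 0.0214), and the call was lost with the Cy5 arrays alone (0.55, limma, adjusted p = 0.117) and on leaving out 10, 65, 70 or 75 min (limma, adjusted p from 0.0589 to 0.0609).

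**Figure D3:**
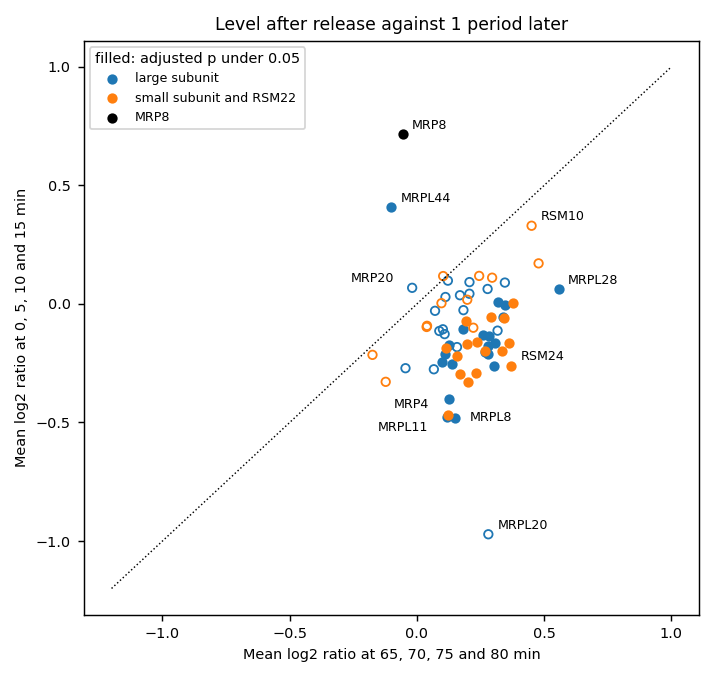
Mean log2 ratio at 0, 5, 10 and 15 min (vertical axis) against that at 65, 70, 75 and 80 min (horizontal axis) for each of the 67 genes, filled where the adjusted p was under 0.05. Of the genes, 63 lie below the dotted line of equal values, and MRP8 and MRPL44 lie above it.

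The size of this count depended on which time points and arrays entered. Leaving out 1 time point at a time gave between 16 (without 70 min, or without 75 min) and 43 (without 0 min) genes called lower, and 23 without 5, 10 or 80 min. Of the 35 genes, 16 were called in every such fit. The Cy5 arrays alone gave 10, and a late window of 60 to 75 min gave 22. Over all 6204 open reading frames the lower calls moved as well, from 382 in the main fit. They were 466 without 0 min, 164 without 70 min and 176 without 75 min. The Cy5 arrays alone gave 168, and the late window of 60 to 75 min gave 345. All late arrays lie in other date batches than the early ones, so time and batch cannot be told apart in this comparison. A comparison inside the date batches, 0 to 15 against 40 to 55 min, was added after the data were seen. It differs in cell cycle position as well as in time since release. The Cy5 array of 0 min, alone in its date batch, adds nothing to it. The median change in the family was -0.165 there, against -0.322 in the main fit. This comparison called 22 of the 67 genes lower early and 2 higher. Among all open reading frames 16.5% were lower and 13.8% higher. Of these 22 genes, 17 were also among the 35. MRPL11 kept a difference of -0.50 there (limma, adjusted p = 0.0007), whereas MRPL8 (-0.24, limma, adjusted p = 0.0625) and MRP4 (-0.18, limma, adjusted p = 0.0564) were not called.

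Coding length moved with the release difference inside the family. Over the 67 genes Spearman's rho between coding length and the difference was -0.524, and over 5704 open reading frames with a known length it was -0.011. Of the 33 longest members, from 714 to 1887 bp, 26 were called lower, with a median change of -0.397. Of the 34 shortest, from 213 to 699 bp, 9 were called lower, with a median change of -0.22. Length was examined after the data were seen, and its part in the result was not tested. Each array's trend with coding length over all open reading frames was then removed. After this, 38 members and 402 of all 6204 open reading frames were called lower. That trend is fitted over all open reading frames, so its removal cannot take out a length pattern found only inside the family. The count therefore does not decide what part length has.

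The length pattern was strongest late in the course. At 105, 110 and 115 min rho between coding length and the ratio was -0.638, -0.598 and -0.659 over the 67 genes, and -0.376, -0.261 and -0.293 over all open reading frames with a length. At 100 min it was -0.119, and at 70 min it was 0.354. Both arrays of 105 min showed it, with rho of -0.615 (sample in Cy3) and -0.568 (sample in Cy5). The 34 shortest genes had a median ratio of 0.114 at 100 min and 0.423 at 105 min, and the 33 longest 0.059 and -0.087. At 0 min, inside the early window, rho was -0.414 over the 67 genes. It was -0.133 with the sample in Cy3 and -0.428 with the sample in Cy5. The 34 shortest genes had a median ratio of 0.134 at 0 min, and the 33 longest -0.03. The design text calls the dye swaps technical replicates. These correlations are descriptions over genes that share the same arrays.

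Named genes show how far the family split at 105 min. RSM7, the counterpart of bacterial S7 (744 bp), went from 0.179 at 100 min to 1.05 at 105 min. MRP2, the counterpart of bacterial S14 (348 bp), went from 0.172 to 0.981. Both were high on each array of the pair. In the other direction MRPS9, the counterpart of bacterial S9 (837 bp), went from 0.148 to -0.915, and RSM23 (1353 bp), the yeast relative of the GTP-binding protein DAP3, from -0.052 to -0.791. At 110 min the 4 genes read 0.471, 0.315, -0.218 and -0.147.

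**Figure D4:**
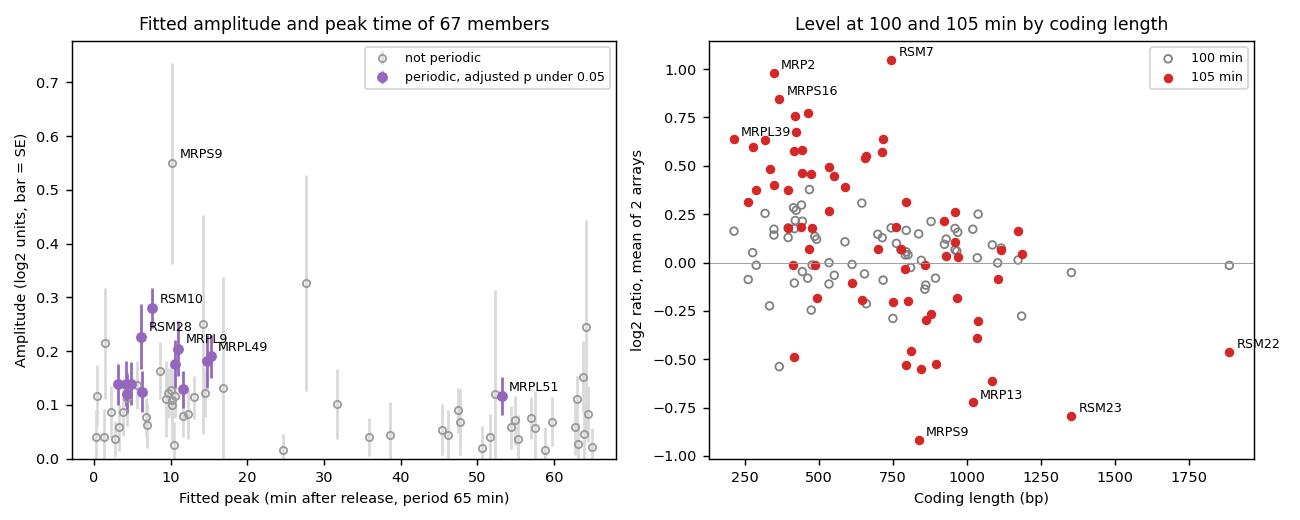
Left, fitted amplitude (log2 units, bars are SE) against fitted peak time (min, period 65 min) for the 67 genes, filled where periodic. Right, log2 ratio against coding length (bp) at 100 min (open) and 105 min (red); at 105 min the short genes lie mostly above 0 and the long ones mostly below it.

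The level of many members was higher in the second cycle than in the first. With a common cosine for both cycles, 36 of the 67 genes were higher from 60 to 115 min than from 0 to 55 min and none was lower (limma, adjusted p under 0.05; 48 had an unadjusted p under 0.05 in either direction). Of all open reading frames 10.1% were called higher and 10.4% lower. The median difference was 0.195 log2 units, or 1.15-fold. It was above 0 in 63 genes and in both orientations in 60. Called differences lay between 0.15 and 0.57 log2 units, and 25 genes were both lower at 0 to 15 min and higher in the second cycle. These comparisons share time points and are not independent.

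MRPL8 had the largest difference among the called genes. Its ratio was at or below -0.159 at every time point up to 60 min, between -0.091 and 0.238 from 65 to 100 min, and 0.636 at 105 min. The fitted difference was 0.57 ± 0.07 (SE; limma, adjusted p = 2.0e-05), with 0.60 in Cy3 and 0.53 in Cy5. Among the called genes MRPL36 followed with 0.36 ± 0.06 (SE; limma, adjusted p = 0.0002), RSM24 with 0.34 ± 0.06 (SE; limma, adjusted p = 0.0010) and MRP4 with 0.32 ± 0.06 (SE; limma, adjusted p = 0.0006). In the large subunit 23 of 38 genes were called, and in the small subunit 13 of 28. The count was 24 without 0 to 15 min, 40 without 105 min and 23 with the length trend removed. Over all open reading frames the higher calls went from 629 to 757, 730 and 568 in these settings. Date batch changes with cycle on the Cy3 arrays, and at nearly the same time on the Cy5 arrays, so level and batch cannot be told apart.

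Cyclic change was small. The period was set at 65 min, the value at which 55 core cell cycle genes were described best (mean R squared 0.691). For the family itself R squared kept rising to 90 min, the end of the scan (0.450 against 0.385 at 65 min). It was already 0.330 at 40 min. These R squared values include a linear time term, so they are not the share of the cycle alone. At 65 min, 13 of the 67 genes, or 19.4%, were periodic (limma F test with a linear time term, adjusted p under 0.05). This was below the 33.8% of all open reading frames. Without 0 to 15 min, 25 of the 67 genes and 2222 of all 6204 open reading frames were periodic. The family's share was then not the lower. The median fitted amplitude, the distance from mean to peak, was 0.10 log2 units in the family and 0.14 over all open reading frames. Of the 13, 12 had a fitted peak between 3.12 and 15.2 min after release, which the fit repeats 65 min later. MRPL51, whose frame overlaps YPR099C, had its fitted peak at 53.2 min. These peaks are fitted around the linear time term, so an early fitted peak does not mean that the early ratios were high. Of the 13 periodic genes, 8 were also called lower at 0 to 15 min in the first comparison.

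RSM10 was the clearest. RSM10, the counterpart of bacterial S10, read 0.428, 0.244, 0.478 and 0.169 from 0 to 15 min. It fell to between -0.228 and 0.053 from 20 to 55 min, rose to 0.561 at 70 min and fell again to -0.107 at 105 min. It is a member whose early and late peaks are alike in height, and its release difference was not called (-0.12, limma, adjusted p = 0.404). The fitted amplitude was 0.28 ± 0.04 (SE), a 1.47-fold peak over trough, with the peak at 7.60 ± 1.35 min (limma, adjusted p = 2.3e-05).

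RSM28, MRPL9 and MRPL49 were also periodic in each orientation alone. RSM28, a small subunit protein, had an amplitude of 0.23 ± 0.06 (SE; limma, adjusted p = 0.0172) and a peak at 6.17 min. MRPL9, the counterpart of bacterial L3, had 0.20 ± 0.05 (SE; limma, adjusted p = 0.0107) and a peak at 11.0 min. MRPL49, the counterpart of bacterial L21, had 0.19 ± 0.04 (SE; limma, adjusted p = 0.0025) and a peak at 15.2 min. With date batch as a block RSM28 (limma, adjusted p = 0.0909) and MRPL9 (limma, adjusted p = 0.0969) were not called, and without the linear term RSM28 (limma, adjusted p = 0.0702) and MRPL49 (limma, adjusted p = 0.102) were not. In these 3 genes the course from 65 to 80 min was high (MRPL9 0.160 to 0.379), while the values from 0 to 15 min were not (MRPL9 -0.323 to -0.025). The count of 13 was 4 without the linear term, 4 with date batch as a block and 25 without 0 to 15 min. Of the 13, 12 were among those 25. Over all open reading frames the same settings gave 2118, 2001 and 2222, against 2100 in the main fit.

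**Figure D5:**
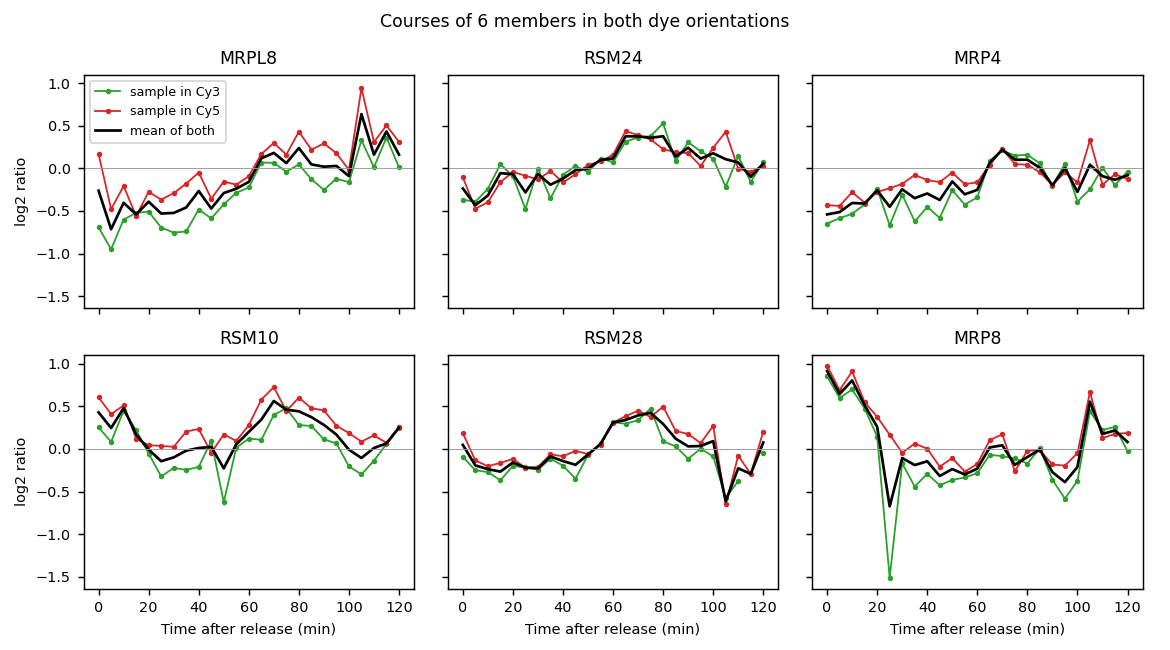
Log2 ratio of 6 genes by time after release (min), with the sample in Cy3 (green), in Cy5 (red) and the mean (black). RSM10 is high in both early and late windows, MRPL8, RSM24 and MRP4 are higher in the late one, RSM28 drops at 105 min and MRP8 starts at its highest value, 0.913.

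The course itself differed between the cycles for 21 of the 67 genes (limma F test of the cosine by cycle, adjusted p under 0.05), against 21.9% of all open reading frames. The amplitude was larger in the second cycle for 14 of them and smaller for 7. The count was 12 without 105, 110 and 115 min. Over all open reading frames the calls then went from 1357 to 650.

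The dye orientation shifted the family as well. Within the 25 pairs, 41 genes read higher with the sample in Cy5 and 1 lower (limma, adjusted p under 0.05), where 32.3% and 14.3% of all open reading frames did. The largest called differences were 0.32 ± 0.04 (SE; limma, adjusted p = 6.2e-07) for MRPL8, 0.31 for MRPS5 (limma, adjusted p = 9.2e-05) and 0.31 for MRPL4 (limma, adjusted p = 2.5e-05). MRPL39, the shortest member, was the exception at -0.15 (limma, adjusted p = 0.0090). Each time point has both orientations, so this difference enters all time points of a gene's mean alike only where it is constant over time. With each array centred on its median, 28 of the 67 genes and 1454 of all 6204 open reading frames read higher.

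The members resembled each other in course. The median correlation over the 2211 pairs of members was 0.362 over 25 time points, and 83.1% of the pairs were above 0; over pairs of all open reading frames the median was 0.00256. With each cycle's mean removed, it was 0.185 and 0.00365. All members share the same arrays, dye shifts and date batches, and these values are descriptions. The genes most like the mean of the other members were MRPL28 (r = 0.860), MRPL8 (0.858), MRPL24 (0.855) and RSM26 (0.852). The least alike were MRP8 (-0.134), MRP20 (-0.107), MRPS16 (0.054) and MRPL44 (0.083), of which the last 2 carry a value at the limit.

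Outside the family, the named open reading frames whose courses were most like the family mean over the 25 time points included SWS2 (r = 0.842) and NAM9 (0.836), which encode mitochondrial small subunit proteins under other names. MDG1, a gene of pheromone signalling, was the nearest of all (0.903). TIM23 (0.836) and TOM20 (0.818) encode parts of the mitochondrial import machinery, and AIM36 (0.819) a mitochondrial protein. PEX6 (0.819), a peroxisomal ATPase gene, and EGT2 (0.814), DSE4 (0.810) and DSE3 (0.797), genes of cell separation and the daughter cell, completed the first 10. Of the first 40, 7 belong to the lists of mitochondrial translation genes, which hold 73 of the 5103 named genes considered.

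Genes that act with the mitochondrial ribosome were counted from lists made with results of these data known. Of 14 further genes listed as mitochondrial ribosomal under other names, 5 were lower at 0 to 15 min and none higher. The median was -0.40 log2 units. Those lower were RML2 (-0.53, limma, adjusted p = 0.0039), SWS2, NAM9, MNP1 and MHR1. The list also holds KGD4, a gene of alpha-ketoglutarate dehydrogenase and not of the ribosome, which was not called (0.16, limma, adjusted p = 0.4583). Of 9 translation factor genes 3 were lower, among them TUF1, the mitochondrial elongation factor Tu (-0.80, limma, adjusted p = 0.0017), and MRF1, the release factor (-0.35, limma, adjusted p = 0.0398). FMT1, which formylates the initiator tRNA, was the other (-0.43, limma, adjusted p = 0.0355). Of 17 genes for mitochondrial tRNA synthetases and related enzymes 5 were lower, with MSY1 at -0.42 (limma, adjusted p = 0.0046).

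Of 7 genes for assembly of the mitochondrial ribosome 4 were lower, including MAM33 (-0.82, limma, adjusted p = 0.0214) and the GTPase gene MTG2 (-0.54, limma, adjusted p = 0.0061). MTG1, another GTPase gene of that list, was higher (0.34, limma, adjusted p = 0.0187). Of 19 activators of mitochondrial messages and insertion factors 3 were lower, with OXA1, the inner membrane insertase, at -0.51 (limma, adjusted p = 0.0059). Of 7 genes for expression of the mitochondrial genome 2 were lower, one of them RPO41, the mitochondrial RNA polymerase (-0.44, limma, adjusted p = 0.0093), and ABF2, which encodes a protein that packages mitochondrial DNA, was higher (0.43, limma, adjusted p = 0.0401). Of 34 respiratory chain and ATP synthase genes 12 were lower and 1 higher, with COR1 of complex III at -0.60 (limma, adjusted p = 0.0013).

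Of the 138 cytoplasmic ribosomal protein genes, 6 were lower at 0 to 15 min, against 6.16% of all open reading frames. Their median change was -0.10 log2 units, and the change was below 0 in 115 of them. In the same set 67 were higher in the second cycle, with a median of 0.17, against 10.1% of all open reading frames. The cytoplasmic set contains many near-identical gene pairs that a spotted probe may not separate. The difference between the 2 ribosomal families was not tested.

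Position on the chromosome was also examined. The R64 gene table places 35 members head to head with a neighbouring gene on the array, so that both start from the same intergenic region. Of these 35 members 16 were lower at 0 to 15 min, and of their partners 1 was lower and 3 were higher, where 6.16% of all open reading frames were lower and 9.4% higher. The median change was -0.309 in the members and 0.039 in the partners. The level was higher in the second cycle in 20 members and 4 partners, where 10.1% of all open reading frames were higher. The median correlation within such a pair was 0.09. RSM10 and its partner ENA1, a sodium pump gene, correlated at 0.453, and MRP1 with its partner SVF1 at -0.134.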

How the data were processed

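Per the labels, total RNA of each time point was hybridised in 2 dye orientations against an asynchronous culture. The values deposited by the authors are log ratios, taken here as log10 of Cy5 over Cy3; no source used here states their normalization. Ratios were turned to sample over reference, converted from log10 to log2 and averaged per pair (a missing array value left its partner alone). Of 6217 lines 13 were left out, and 5704 open reading frames were named through the R64 gene table. The number of arrays limits the precision.

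Fits used limma 3.58.1 in R 4.3.3 over all 6204 open reading frames, adjusted after Benjamini-Hochberg and called under 0.05: a cosine with linear time, 0 to 15 against 65 to 80 min, cycle level, cosine by cycle, and dye within pairs. Only the cosine with linear time, the 0 to 15 against 65 to 80 min fit and the cycle level fit were tested on simulated data. Described counts used Python 3.11.15. Alternatives covered orientation, centring, limit values, period, windows, date batch and length. The members and lists were chosen with earlier results of these data known. Detail was given to members with the largest called effects of each test, the 4 most and 4 least alike in course, and the 10 named genes most like the mean; genes described at 105 min, and list genes beyond this, were chosen after their values were seen.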

Additional observations from a re-analysis of the deposited data

Results flagged for a closer look

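RSM24 read 0.358 at 75 min, below 0.375, 0.375 and 0.376 at the other time points of its late window. The gap is large only against a very narrow range. It was 1 of 16 windows examined, and chance alone marks about 1 in 20.

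Among the 21 genes whose cosine differed between the cycles (limma, adjusted p under 0.05), the 3 with the largest change of amplitude each way were examined. The amplitude in the second cycle minus that in the first was -0.373 for MRP8, -0.168 for RSM25 and -0.075 for MRPL16. It was 0.248 for RSM28, 0.218 for MRPL9 and 0.184 for MRPL1. Without 105, 110 and 115 min, the time points at which ratios followed coding length, MRP8 (-0.417, limma, adjusted p = 0.179), MRPL16 (-0.065, limma, adjusted p = 0.0554), RSM28 (0.076, limma, adjusted p = 0.111) and MRPL9 (0.135, limma, adjusted p = 0.167) were no longer called. RSM25 was called in neither orientation alone (limma, adjusted p = 0.119 with the sample in Cy3 and 0.212 in Cy5), nor was MRPL9 (0.0633 and 0.108), while MRP8 (-0.449, limma, adjusted p = 0.064) and MRPL16 (-0.086, limma, adjusted p = 0.0731) were not called with the Cy3 arrays alone, and MRPL1 was not called with the Cy5 arrays alone (0.053, limma, adjusted p = 0.333).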

How the results depend on the processing

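Counts are of the 67 genes, unless all open reading frames are named, at an adjusted p under 0.05 (limma). The 13 periodic genes became 25 with quantile normalization or without 0 to 15 min, 4 with no linear term or with date batch as a block, 7 with a step at 60 min in place of linear time and 8 at a period of 60 min. Single dye orientations gave 4 to 11. Over all 6204 open reading frames the 2100 periodic calls became 2815 with quantile normalization and 2222 without 0 to 15 min. They became 2118 with no linear term, 2001 with date batch as a block, 2499 with the step and 2186 at 60 min. Single orientations gave 1726 and 1517. The 35 genes lower at 0 to 15 min became 22 against 60 to 75 min and 22 within date batches. Single orientations or single time points left out gave 10 to 43. Over all open reading frames the 382 lower calls became 345 and 1023 in the first 2 settings, and 164 to 466 in the others. The 36 genes higher in the second cycle became 23 with the length trend removed, and single orientations gave 24 to 29. Over all open reading frames the 629 higher calls became 568 with the length trend removed, and 550 and 340 in single orientations. The 21 genes with a cosine that differed between cycles became 12 without 105, 110 and 115 min and 10 in either orientation alone. Over all open reading frames the 1357 such calls became 650 without these time points, and 961 and 675 in single orientations. With dye orientation as a replicate block and time point as a random term, 15 were periodic, 36 lower early and 40 higher in the second cycle. Over all open reading frames these counts were 2302, 512 and 690. Arrays of the same replicate number share a dye, and no label gives the dye orientations separate cultures. The other settings kept each count within 1.5 times. Among genes detailed by rule, 212 alternative values kept direction and call, 24 kept the direction without the call, and none reversed. A fitted amplitude has no direction, so the values of periodic genes could not reverse. Periodic, release and level genes were also picked for calls or like signs in both orientations. The single orientations therefore could not test them freely. The cause of these shifts was not tested. The settings for date batch, length, and leaving out 105 min, or 0 and 5 min, were added after the data were seen.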
